A study of Caenorhabditis elegans with 3 samples.

Results

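Translation initiation and elongation factors are the proteins that bring the messenger RNA, the initiator tRNA and the ribosome together and then move the ribosome along the message. This account covers their genes in Caenorhabditis elegans, taken as every single-gene array feature whose symbol begins with eif, eef, eftu, ife, ifg, iff, inf, iftb or ifet and a hyphen. The rule found 36 of the 20000 features, for 34 genes, and each of the 34 had at least 1 feature with a value on all 3 arrays. Of 42 RefSeq genes with such a symbol, the other 8 have no single-gene feature here (eif-2alpha, eif-2Bgamma, eif-3.C, eif-3.I, eif-3.L, eif-4A3, ife-5 and eef-1A.1). They were not analysed, and neither were 2 features that list a gene of this kind beside another gene.

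The study hybridised 3 two-colour arrays. Channel 2 of each held RNA of hermaphrodites labelled as TP10 adults with embryos, from preparations numbered 1 to 3, and channel 1 held a wild-type reference labelled as mixed. The labels give no strain, mutant allele or treatment, and do not say what TP10 stands for, what was mixed, or whether the preparations came from separate cultures, so p-values measure the spread between preparations, which may be technical. Values are log2 ratios of TP10 over the reference, each array centred on its median. That direction follows the order in the sample descriptions and is likely, but no dye is named. An inverted table would swap "higher" and "lower" throughout. "Higher" and "lower" are relative to the median gene, and with whole animals, more cells of a type and more RNA per cell cannot be told apart.

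As background, eIF2 carries the initiator tRNA and eIF2B reloads eIF2 with GTP. The multi-subunit eIF3 holds the small ribosomal subunit, and the eIF4 proteins bind the cap, bridge to the ribosome and unwind the leader. eIF5A and eIF6 act on the ribosome itself, and the eEF1 and eEF2 proteins drive elongation. In the worm germ line and early embryo many maternal messages are stored and translated later, so these factors and their repressors have been studied there.

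Most translation factor genes were higher in TP10. In limma's test of the mean ratio against 0, at an adjusted p under 0.05, 22 of the 34 genes were higher, 1 was lower and 11 did not pass. Of all 19301 genes and features tested, 43.9% passed, 22% higher and 21.9% lower. At least 2-fold changes were found in 13 higher genes and 1 lower gene, against 8.29% and 8.30% of all. The median of the 34 means was 0.72 log2, against 0.01 over all genes and features, and the means ran from -1.20 to 1.91 with an SD between genes of 0.64. On the separate arrays the median of the 34 was 0.93, 0.71 and 0.49 for preparations 1, 2 and 3. Ratios above 0 on all 3 arrays were found for 24 of the 34, against 33.8% of all genes and features. Ratios below 0 on all 3 were found for 2 of the 34, against 6458 of all 19301. One gene caught by the rule is not a translation factor by its known role: eftu-2 encodes the worm counterpart of a GTPase of the U5 splicing particle. Without it the median was 0.69, and 21 of 33 genes were higher and 1 lower.

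**Figure D1:**
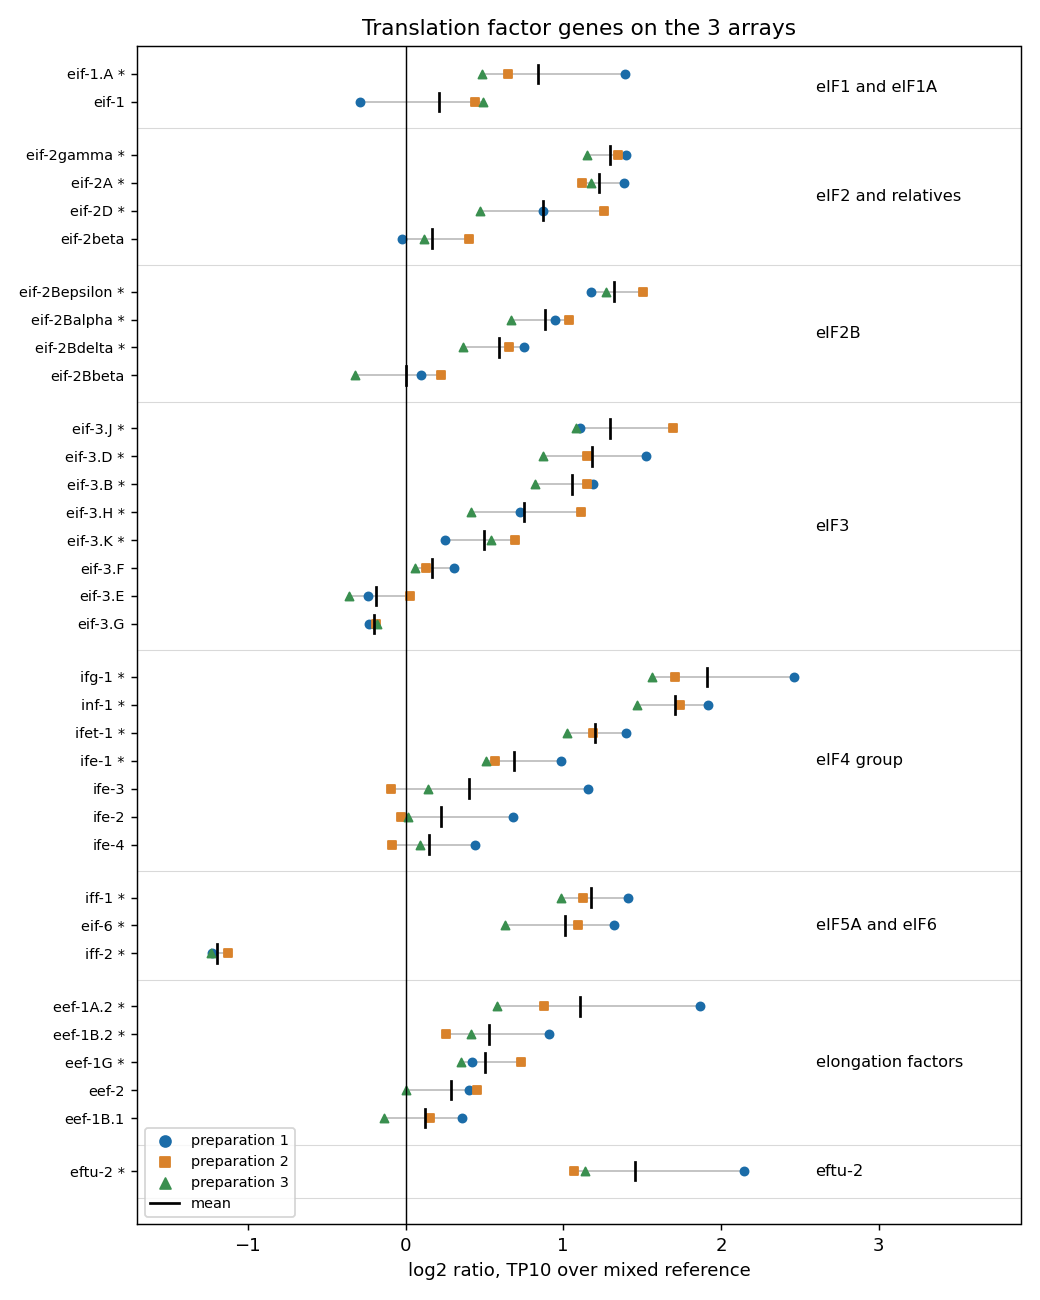
Each row is 1 of the 34 genes, with its log2 ratio of TP10 over the mixed reference on the horizontal axis, 1 point for each of the 3 preparations, a grey line over their range and a black bar at the mean. An asterisk marks the 23 genes past the threshold. The means of ifg-1 and inf-1 lie farthest to the right, and iff-2 is the 1 gene past the threshold on the left.

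The cap-binding group held the highest genes of the set. ifg-1, which encodes eIF4G, the scaffold between the cap-binding protein and the ribosome, had log2 ratios of 2.46, 1.71 and 1.57 on arrays 1, 2 and 3. Its mean of 1.91 ± 0.48 (SD, n = 3), or 3.77-fold higher (adjusted p = 3.34e-05), lay at percentile 99.1 of all genes and features. inf-1, for the RNA helicase eIF4A, had ratios of 1.92, 1.74 and 1.47, with a mean of 1.71 ± 0.22 (3.27-fold, adjusted p = 1.81e-05). For the measured genes of eIF4E, their cap-binding partner, the highest ratio was 1.16 log2, for ife-3 on array 1. The differences between ifg-1 or inf-1 and these genes were not tested. ifet-1, the worm homologue of the eIF4E transporter and a repressor of maternal messages, had ratios of 1.40, 1.19 and 1.02, with a mean of 1.20 ± 0.19 (adjusted p = 1.15e-04).

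The 4 measured genes of eIF4E itself were less high. A further ife gene, ife-5, has no single-gene feature here, and cross-hybridisation among the ife genes was not tested. ife-1, whose protein associates with germ granules and is needed for sperm formation, had ratios of 0.98, 0.57 and 0.51, with a mean of 0.69 ± 0.26 (SD, n = 3; adjusted p = 0.00433). ife-3, which also acts in the germ line, had 1.16 on array 1 but -0.09 and 0.14 on arrays 2 and 3. Its mean of 0.40 ± 0.66 did not pass (adjusted p = 0.173), and it moved with the preparation left out: it was 0.03 without preparation 1 (adjusted p = 0.919) and 0.65, past the threshold, without preparation 2 (adjusted p = 0.0339). ife-2, best known from somatic tissue and lifespan, had 0.68, -0.03 and 0.02. ife-4, described in neurons and muscle, had 0.44, -0.09 and 0.09. Neither passed, with means of 0.22 ± 0.40 (adjusted p = 0.334) and 0.15 ± 0.27 (adjusted p = 0.478). Each of the 4 genes had its highest ratio on array 1.

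The eIF4E genes were also compared in pairs on the same array. ife-1 exceeded ife-2 by 0.30, 0.60 and 0.50 log2 on arrays 1, 2 and 3, a mean of 0.47 ± 0.15 (SD, n = 3). It exceeded ife-4 by 0.54, 0.65 and 0.42, a mean of 0.54 ± 0.12. Against ife-3 the order changed: ife-1 was lower by a difference of -0.18 on array 1 and higher by 0.66 and 0.37 on the other arrays. The pairs among ife-2, ife-3 and ife-4 likewise had no single sign over the 3 arrays. In 3 arrays the exact two-sided sign-flip permutation test cannot give a p below 0.25, which both ife-1 pairs with a single sign reached; over the 7 pairs tested in all, the adjusted exact p was 0.583 for each.

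The 2 genes of eIF5A went opposite ways. eIF5A helps the ribosome past difficult peptide bonds and carries the modified lysine hypusine. iff-1, the copy needed for germ cell proliferation, had log2 ratios of 1.41, 1.13 and 0.99, with a mean of 1.18 ± 0.22 (SD, n = 3), or 2.26-fold higher (adjusted p = 1.48e-04). iff-2, the copy described in somatic tissue, had -1.23, -1.13 and -1.23, with a mean of -1.20 ± 0.06, or 2.29-fold lower (adjusted p = 8.77e-05). It was the only gene of the 34 past the threshold on the lower side, at percentile 5.88 of all genes and features. Compared on the same array, iff-1 exceeded iff-2 by 2.64, 2.25 and 2.22 log2, a mean of 2.37 ± 0.23 or 5.18-fold. The exact permutation p was 0.25, the smallest possible here, and the adjusted p was 0.583 over 7 pairs.

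**Figure D2:**
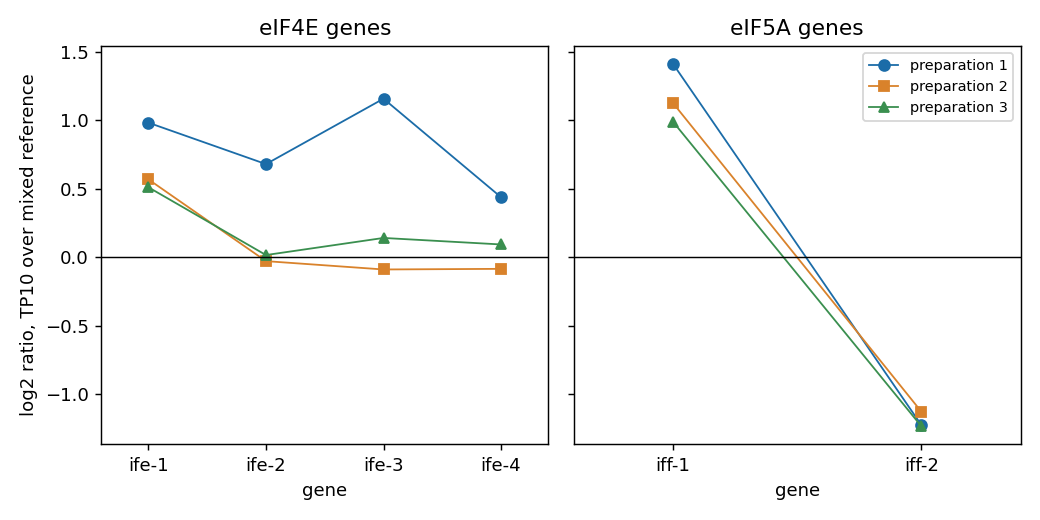
Log2 ratios of TP10 over the mixed reference (vertical axis) of the eIF4E genes ife-1 to ife-4 and the eIF5A genes iff-1 and iff-2, with 1 line for each preparation. On every array iff-1 lies near or above 1 and iff-2 below -1, while ife-2, ife-3 and ife-4 lie near 0 on arrays 2 and 3 and higher on array 1.

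Enzymes that make hypusine on eIF5A were in a separate list of other translation genes. dohh-1, the hydroxylase of the second step, stood at -1.33, -1.15 and -1.23, a mean of -1.24 ± 0.09 (SD, n = 3; adjusted p = 7.50e-05). dhps-1, the synthase of the first step, stood at 0.41, 0.65 and 0.30, a mean of 0.46 ± 0.18 (adjusted p = 0.0275; chosen after its value was seen). These enzymes lay on opposite sides of 0 on all 3 arrays, a contrast picked after the values were seen. The difference between them was not tested.

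eIF6, which keeps the large ribosomal subunit from joining too early, gave conflicting features. The eif-6 feature with values on all arrays stood at 1.32, 1.09 and 0.63, with a mean of 1.01 ± 0.35 (SD, n = 3; adjusted p = 6.88e-04). The other feature of the gene has no value on array 1, and its deposited ratios were -0.90 and -3.12 on arrays 2 and 3. With both averaged, the mean was 0.05 and the call was lost (adjusted p = 0.925). The features thus disagreed in sign on both arrays they share. The 2 features of eif-3.J, for a loosely bound eIF3 subunit, stood at 1.05, 2.06 and 1.13 and at 1.15, 1.38 and 1.05 as deposited, all on the same side.

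**Figure D3:**
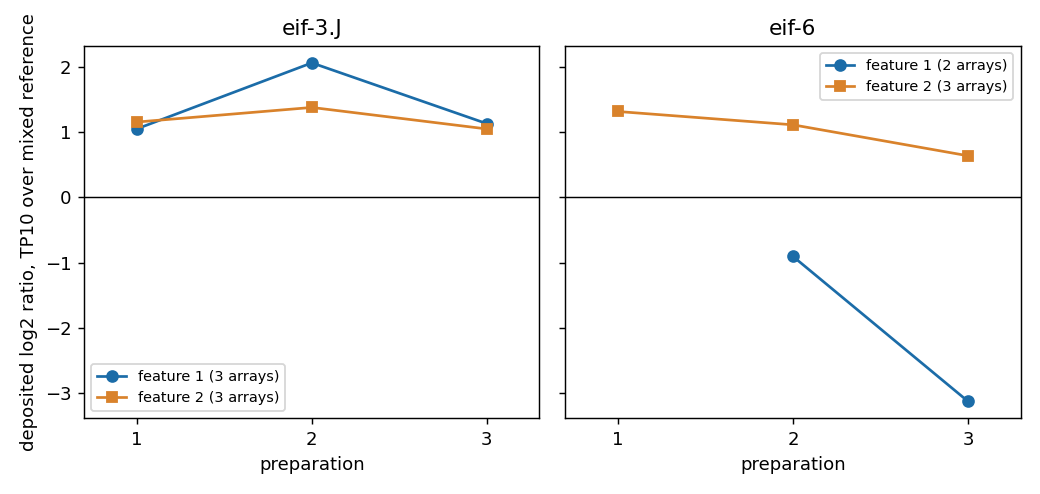
Deposited log2 ratios (vertical axis) of the 2 array features of eif-3.J and of eif-6 by preparation (horizontal axis). Both eif-3.J features stay above 1, while the eif-6 features lie on opposite sides of 0, and 1 of them has values for preparations 2 and 3 only.

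In the group of eIF2 and its relatives, 3 of the 4 measured genes were higher and the median was 1.05 log2, with no gene past the threshold on the lower side. eif-2gamma, the subunit that binds GTP and the initiator tRNA, had 1.40, 1.35 and 1.15, a mean of 1.30 ± 0.13 (SD, n = 3), or 2.46-fold (adjusted p = 6.18e-05). eif-2beta, its partner in the same complex, had -0.02, 0.41 and 0.12 and did not pass, with a mean of 0.17 ± 0.22 (adjusted p = 0.400) and a 95% interval of -0.16 to 0.50. The difference between these subunits was not tested. The relatives deliver initiator tRNA to the ribosome outside the usual route in other species: eif-2A stood at 1.39, 1.12 and 1.18, a mean of 1.23 ± 0.14 (adjusted p = 8.87e-05). eif-2D stood at 0.88, 1.26 and 0.47, a mean of 0.87 ± 0.39 (adjusted p = 0.00212).

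The exchange factor eIF2B had 3 of 4 measured subunits higher and 0 lower, at a median of 0.74 log2. eif-2Bepsilon, the catalytic subunit, had 1.18, 1.51 and 1.27, a mean of 1.32 ± 0.17 (SD, n = 3), or 2.50-fold (adjusted p = 6.32e-05). eif-2Balpha and eif-2Bdelta, of the regulatory part that senses phosphorylated eIF2, averaged 0.89 ± 0.19 and 0.59 ± 0.20 (adjusted p = 7.43e-04 and 0.00788). eif-2Bbeta, of the same regulatory part, had 0.10, 0.23 and -0.32. Its mean of 0.00 ± 0.29 had a 95% interval of -0.35 to 0.35, so the subunits of this complex were spread from the median gene to percentile 96.0.

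Subunits of eIF3 were spread in the same way. The median of 8 measured was 0.62 log2, and 5 of them were higher and 0 lower. The highest were eif-3.J at 1.11, 1.70 and 1.08 (mean 1.30 ± 0.35, adjusted p = 1.55e-04) and eif-3.D at 1.53, 1.15 and 0.87 (mean 1.18 ± 0.33, adjusted p = 2.36e-04), where eIF3d is known in human cells as a cap-binding subunit. eif-3.B, for a core subunit, had 1.19, 1.15 and 0.82, a mean of 1.05 ± 0.20 (SD, n = 3; adjusted p = 2.70e-04). eif-3.H averaged 0.75 ± 0.35 (adjusted p = 0.00395). eif-3.K, at 0.25, 0.69 and 0.54 (mean 0.50 ± 0.22, adjusted p = 0.0210), lost its call when preparation 2 was left out (adjusted p = 0.161), and likewise for preparation 3 (adjusted p = 0.0839).

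The other 3 eIF3 subunits did not pass, at percentiles 33.1 (eif-3.G), 33.6 (eif-3.E) and 63.3 (eif-3.F) of all genes and features. eif-3.G, whose product binds RNA, had -0.23, -0.19 and -0.18, a mean of -0.20 ± 0.03 (SD, n = 3, adjusted p = 0.279). Its spread between arrays was the smallest of any of the 34. limma's moderated standard error for it was 0.14, larger than that SD, and in the unmoderated test its adjusted p was 0.0880. eif-3.E averaged -0.19 ± 0.20 and eif-3.F 0.17 ± 0.13 (adjusted p = 0.334 and 0.380). The 95% intervals, each for 1 gene against 0, were -0.51 to 0.11 for eif-3.G, -0.52 to 0.14 for eif-3.E and 0.72 to 1.38 for eif-3.B. Differences between these subunits were not tested.

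Factors that open the scan for the start codon were represented by a pair of genes. eif-1.A, for eIF1A, had 1.39, 0.65 and 0.48, a mean of 0.84 ± 0.48 (SD, n = 3; adjusted p = 0.00424). eif-1, for its partner eIF1, had -0.29, 0.44 and 0.49, a mean of 0.21 ± 0.44 that did not pass (adjusted p = 0.375). Array 1 was the highest for eif-1.A and the lowest for eif-1, and without it eif-1 stood at 0.46 and passed (adjusted p = 0.0348). Without preparation 2 or 3 eif-1 stood at 0.10 or 0.07 and did not pass (adjusted p = 0.786 and 0.831).

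Of the 5 elongation factor genes, 3 passed on the higher side and 0 on the lower, and their median was 0.50 log2. eef-1A.2, for the protein that brings charged tRNA to the ribosome, had 1.87, 0.88 and 0.58, a mean of 1.11 ± 0.67 (SD, n = 3; adjusted p = 0.00238). Without preparation 1 its mean was 0.73. It has a close copy, eef-1A.1, and cross-hybridisation between them was not tested. Of the genes for eEF1B, which reloads eEF1A with GTP, eef-1G had 0.42, 0.73 and 0.35 (mean 0.50 ± 0.20, adjusted p = 0.0182). eef-1B.2 had 0.91, 0.26 and 0.42 (mean 0.53 ± 0.34, adjusted p = 0.0241). eef-1B.1 did not pass, at 0.13 ± 0.25 (adjusted p = 0.548). The eef-1G and eef-1B.2 calls were lost when 1 array was left out: eef-1G did not pass without preparation 2 (adjusted p = 0.168), nor eef-1B.2 without preparation 1 (adjusted p = 0.111). eef-2, for the translocase, had 0.40, 0.45 and 0.00, a mean of 0.29 ± 0.25 (adjusted p = 0.159).

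The splicing gene eftu-2 stood at 2.15, 1.07 and 1.14, a mean of 1.45 ± 0.60 (SD, n = 3; adjusted p = 3.20e-04).

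Array 1 often gave the highest ratio. Of the 22 higher genes, 15 had their highest ratio on array 1, 7 on array 2 and 0 on array 3, while among all 4246 higher genes and features array 1 was highest for 45.7%, array 2 for 46.6% and array 3 for 7.72%. Ratios were spread most widely on array 1 (SD 0.89 log2 over all deposited values) and least on array 3 (SD 0.68). Across the 34 genes, which share the 3 arrays and the reference, Pearson's r was 0.779 for arrays 1 and 2, 0.857 for 1 and 3, and 0.925 for 2 and 3. The median SD of a gene between arrays was 0.25 for the 34 and 0.23 for all.

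By chromosome, 31 of the 34 genes are autosomal, and 21 of these were higher, against 24.3% of all autosomal genes tested. The 3 X-linked genes were eef-1A.2, ife-2 and ife-4, of which eef-1A.2 was higher, against 10.1% of all X-linked genes. The median was 0.75 log2 for the autosomal members and 0.22 for the X-linked ones.

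Other genes that act in or on translation were measured as 1 list of 40, of which 28 had values. Their median was 0.53 log2, and 18 were higher and 4 lower, leaving 6 that did not pass. The highest were erfa-3 and larp-1 with gcn-2 between them. erfa-3 encodes the GTPase of termination and stood at 1.60, 1.49 and 1.19 (mean 1.43 ± 0.21, SD, n = 3; adjusted p = 4.68e-05), and gcn-2, a kinase that phosphorylates eIF2 on amino acid shortage, at 1.29, 1.43 and 1.31 (mean 1.35 ± 0.08, adjusted p = 4.52e-05). larp-1, for a RNA-binding protein of the La-related family, averaged 1.34 ± 0.55 (adjusted p = 3.77e-04).

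The lowest of that list was efk-1, the kinase that inhibits eEF2, at -1.33, -1.47 and -1.74, a mean of -1.51 ± 0.21 (SD, n = 3), or 2.86-fold lower (adjusted p = 3.39e-05). dohh-1, described above, was next. dph-3, for a protein of the diphthamide modification of eEF2, averaged -0.84 ± 0.19 (adjusted p = 9.82e-04). Of the same pathway, dph-2 averaged 0.95 ± 0.87 (adjusted p = 0.0146) and dph-1 -0.01 ± 0.09 (adjusted p = 0.962), both chosen after their values were seen. The fourth lowest of the list was pek-1, the eIF2 kinase of the endoplasmic reticulum, at -0.45, -0.93 and -0.67 (mean -0.68 ± 0.24, adjusted p = 0.00418, chosen after its value was seen). The measured eIF2 kinases gcn-2 and pek-1 lay on opposite sides of 0 on all 3 arrays. Both were named with their values known, so this contrast was selected, and the difference was not tested.

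Set beside like gene groups, the median of the translation factors, 0.72 log2, was close to that of 28 aminoacyl-tRNA synthetase genes, 0.79, of which 22 were higher and 0 lower. The 63 ribosomal protein genes had a median of 0.21, with 13 (20.6%) higher, near the share of all genes and features, and 5 (7.94%) lower. The differences between these groups were not tested. Markers of oocytes and the germ line were on the same side as most translation factors. Of 40 listed, 34 were measured, of which 31 (91.2%) were higher and 0 lower past the threshold. Their medians were 1.68, 1.74 and 1.32 on arrays 1, 2 and 3. That list takes in yolk protein genes, whose tissue of expression was not examined: vit-2 was higher, while vit-5 and vit-6 did not pass. The marker egg-1 did not pass either, with a mean of -0.23 log2. The adult hermaphrodite label thus stands beside higher oocyte markers, while 29 of 30 major sperm protein genes (96.7%) were lower (median -1.30). Of 9 neuronal markers 7 (77.8%) were lower and 0 higher. Of 9 intestinal markers 5 (55.6%) were lower and 2 (22.2%) higher, the latter near the share of all genes and features. Of 8 muscle markers 1 (12.5%) was lower and 3 (37.5%) higher. What part germ line content has in the ratios of the translation factors was not tested.

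**Figure D4:**
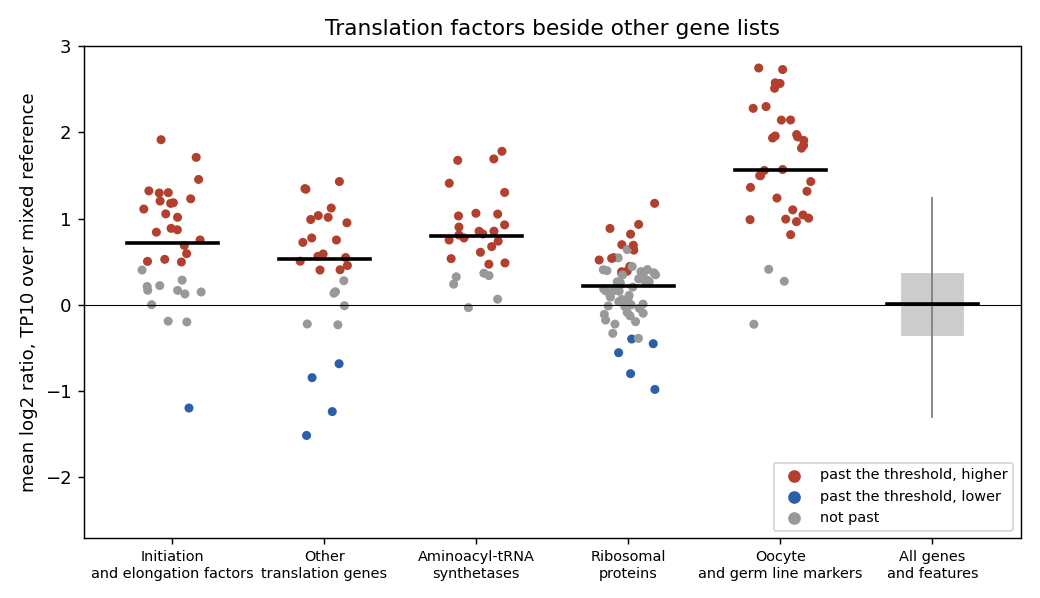
Mean log2 ratio of TP10 over the mixed reference (vertical axis) for each gene of 5 lists, red where it passed the threshold higher, blue where lower and grey otherwise, with a black bar at the list's median. The grey box and line at the right span the percentiles 25 to 75 and 5 to 95 of all genes and features. Translation factors (median 0.72) lie near the synthetases (0.79), above the ribosomal proteins (0.21) and below the oocyte and germ line markers (1.56).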

How the data were processed

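The authors' deposited table gives log2 ratios of the 2 channels for 20000 features. Base 2 was inferred because at least 99.98% of values per array, taken as powers of 2, gave whole thousandths (tolerance 0.01 thousandths). Medians of -0.0087, 0.017 and 0.010 show prior centring. The centring method, background correction and spot filters are not given in the sources used here. Spot intensities were not used here, so features below background or saturated are unknown, and precision is limited by the number of arrays.

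Of 15655 single-gene features in the platform annotation, 15569 matched RefSeq (WBcel235) by gene identifier and 54 by accession or sequence name. A value on all 3 arrays was required (19748 features), features of a gene were averaged, and arrays were centred on their medians, giving 19301 genes and features. limma 3.58.1 in R 4.3.3 (lmFit, eBayes, intercept only, two-sided) tested the mean ratio against 0, with Benjamini-Hochberg adjustment over all 19301. The reference has no replicates of its own and no dye swap is named, so its spread and any dye bias are not in the error. The fit was tested on simulated data. Pairs of paralogs were compared by an exact sign-flip permutation test. Every gene matching the symbol rule is named. Of the other translation genes, the 3 highest and 3 lowest past the threshold are named. dhps-1, pek-1, dph-1 and dph-2 were added after their values were seen. Members and lists were chosen with earlier results of these data known.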

Additional observations from a re-analysis of the deposited data

How the results depend on the processing

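No paired analysis was possible because there is 1 group. Beside the unmoderated test, 12 alternatives were run, in centring, normalization, missing values, a filter on SD, features kept apart, variance model and preparations left out. The count of higher translation factor genes (22) was 21 to 22 without 1 preparation and 18 to 23 in the other alternatives. The 23, with features kept apart, counts both features of eif-3.J, so no further gene passed. The 18 came where the tenth of genes of highest SD was dropped. That filter removed eef-1A.2, eftu-2, eif-1.A and ifg-1 before the test, so their calls were not lost in it. The 1 lower gene stayed at 1, and the median of 0.72 log2 ran from 0.59 to 0.85. The unmoderated one-sample test, with 2 degrees of freedom per gene, called 0 translation factor genes higher and 0 lower, and over all genes 0 higher (0%) and 1 lower, while at an unadjusted p under 0.05 it had 15 translation factor genes higher and 2 lower, against 17.5% and 17.9% of all genes and features. Of the 23 called genes, 19 kept their side of the threshold in every alternative but that test in which they were tested. The exceptions were eef-1B.2, eef-1G, eif-3.K and eif-6, as given above. Among the 11 others, eif-1 and ife-3 passed without 1 preparation. Signs turned in genes near 0: eif-2Bbeta was -0.027 after quantile normalization, -0.038 after scaling and -0.0052 with array weights, and -0.11 to 0.16 without 1 preparation. Without 1 preparation ife-2 ran from -0.0065 to 0.35, and the difference of ife-2 over ife-4 from -0.011 to 0.15; the causes were not tested. The difference of iff-1 over iff-2 ran from 2.24 to 2.45.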
